A study of Mus musculus with 12 samples.

Results

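Lymphocytes were followed in these livers through 10 marker genes, chosen by name among the 52636 genes counted. They comprise 4 T cell genes (Cd3e, Cd3g, Cd8a and Cd4), 2 genes of natural killer (NK) and cytotoxic cells (Nkg7 and Gzma) and 4 B cell genes (Cd79a, Cd79b, Ighm and Igkc). The rule names the genes and uses no count, but the list was drawn up with earlier results of these data known. T cells recognize antigen through a receptor that signals through the CD3 chains, with CD8 or CD4 as the coreceptor of cytotoxic or helper cells. NK cells and cytotoxic T cells kill target cells with granule proteases. B cells carry an immunoglobulin as their receptor, which signals through the CD79 pair, and plasma cells secrete it. The healthy mouse liver holds resident and passing cells of all of these types among a large majority of hepatocytes.

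The study asked whether vitamin D deficiency before birth leaves a lasting change in the liver. C57Bl/6J dams received a diet with no vitamin D (VDD) or a matched sufficient diet (VDS) before mating with control-diet males and through pregnancy, and the VDD dams also received calcium gluconate, so that the effects of the deficiency and of the calcium supplement cannot be told apart. All dams were given the VDS diet after delivery, and all offspring received it from weaning. Bulk RNA-seq was performed on the left lateral lobe of 6 male offspring per group (VDD-F1 and VDS-F1) at 16 weeks of age, with 1 library per mouse from total RNA after depletion of ribosomal RNA. The litters are not given in the sources used here, so the p-values measure only the spread between these mice. Every value is from bulk tissue, where fewer cells of a type and less RNA per cell cannot be told apart.

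Between 14275793 and 20815066 fragments were counted on genes in each library. Hepatocyte genes had the levels of a liver, and their summed level was 89753 to 120187 CPM (counts scaled to the effective library size) over the 12 mice for 7 genes. VDD2 stood apart from the other mice. It had the highest CPM of the 12 mice in 7 of the 10 lymphocyte genes (Cd3e, Cd8a, Nkg7, Gzma, Cd79a, Cd79b and Igkc), while it was the highest mouse for 18.2% of the 17769 genes whose counts totalled at least 12. Its summed CPM of 10 pan-leukocyte genes was 308, where the other VDD-F1 mice had at most 214 and the VDS-F1 mice at most 183. The fitted change of each member is therefore also given without VDD2, and the same was done for the permutation tests and gene lists after the data had been seen. Fragments outside genes made up 11.1% of the VDS6 library. The supplement of the study records a liver weight for 7 of the mice (VDD4, VDD5, VDD6, VDS3, VDS4, VDS5 and VDS6) and none for the other 5. Comparisons were also made within these sets.

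The promoters of 3 members are shown because they belong to genes with different readouts here: Cd8a and Gzma had the largest fitted differences between the groups, and Cd3g had the smallest. They are the 250 bases before the RefSeq start site on GRCm38.p6, where that start coincides with the start of the GENCODE gene. Capitals mark the letters of 2 motifs, CAGGTG (an E-box bound by E proteins, the lymphoid helix-loop-helix factors) and TGTGGT (bound by Runx factors), on either strand. The positions are chr6:71373177-71373426 on the plus strand for Cd8a, chr13:113100982-113101231 on the minus strand for Gzma and chr9:44980432-44980681 on the minus strand for Cd3g.
Cd8a: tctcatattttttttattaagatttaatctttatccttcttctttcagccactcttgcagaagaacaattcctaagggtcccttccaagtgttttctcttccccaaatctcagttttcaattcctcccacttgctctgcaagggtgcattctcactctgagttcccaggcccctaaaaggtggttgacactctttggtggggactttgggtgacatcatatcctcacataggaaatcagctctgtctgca
Gzma: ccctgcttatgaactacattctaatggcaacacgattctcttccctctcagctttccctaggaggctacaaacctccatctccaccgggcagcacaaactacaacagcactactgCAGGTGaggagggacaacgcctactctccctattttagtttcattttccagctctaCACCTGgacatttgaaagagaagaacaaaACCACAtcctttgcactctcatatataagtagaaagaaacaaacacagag
Cd3g: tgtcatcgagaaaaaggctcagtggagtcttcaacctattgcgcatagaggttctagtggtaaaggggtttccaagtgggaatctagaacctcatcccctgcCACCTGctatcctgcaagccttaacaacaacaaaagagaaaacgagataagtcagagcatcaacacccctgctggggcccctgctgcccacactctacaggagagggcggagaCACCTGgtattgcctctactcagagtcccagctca
RefSeq gave a promoter for 6 of the 10 members (Cd3e, Cd3g, Cd8a, Nkg7, Gzma and Cd79a). CAGGTG occurred in 3 of these 6 and in 17.2% of 32851 promoters of the same length. TGTGGT occurred in 2 of the 6 (Nkg7 and Gzma) and in 14.1% of all promoters. AGGAAG, a core bound by Ets factors, occurred in 3 of the 6 (Cd3e, Nkg7 and Cd79a) and in 29.5% of all. The palindromic motif of Ebf, a factor of B cells, occurred in 0 of the 6 and in 0.779% of all. The Gzma promoter held CAGGTG on both strands, at 135 bases and 79 bases before the start, and the Cd8a promoter held no match to these letters. These matches describe letters in a window, and none was set against a fold change.

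All 10 genes were weakly expressed. Their summed count was 125 to 882 per library. In 5 genes the mean count was under 12 over the 12 libraries, the study's minimum, namely Cd3g, Cd8a, Nkg7, Gzma and Cd79b. They were tested in a second fit of all 17769 genes with a total count of at least 12, and the other 5 members in the fit of the 12453 genes at or above that mean. CPM per kilobase of exon (RPKM) allows levels to be compared between genes. Over the 12 mice the mean level was highest for Igkc, at 8.87 ± 7.03 RPKM (SD), and Ighm, at 5.85 ± 5.53 RPKM. Cd79a (0.506), Cd79b (0.481), Nkg7 (0.443) and Cd4 (0.422) followed, and then Gzma (0.280), Cd3e (0.259), Cd3g (0.0798) and Cd8a (0.0568 RPKM). The order differed between the groups, and Cd4 had rank 3 in VDS-F1 mice (0.551 ± 0.187 RPKM, SD) and rank 8 in VDD-F1 mice (0.293 ± 0.0566 RPKM). In the order over all mice, none of the 9 gaps between neighbours in this order exceeded the larger SD of the pair. The lowest Ighm level of any mouse (1.47 RPKM) was nevertheless above the highest Cd79a level (1.32 RPKM).

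**Figure D1:**
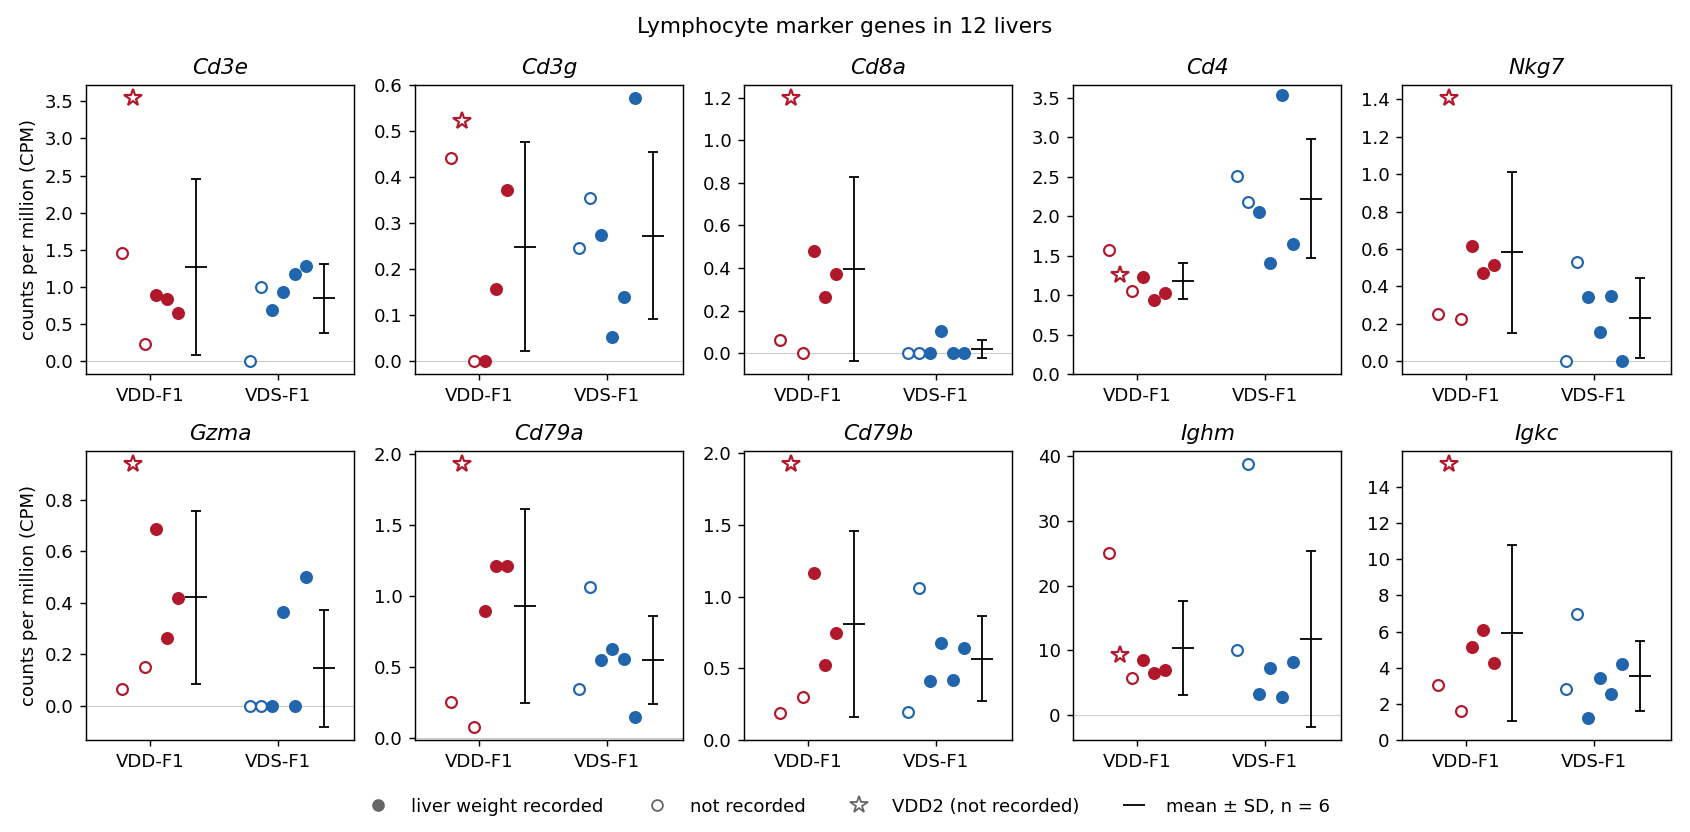
CPM of the 10 lymphocyte marker genes (vertical axes) in VDD-F1 and VDS-F1 mice, 1 symbol per mouse, with filled symbols for mice with a recorded liver weight, a star for VDD2 and the mean ± SD of 6 mice beside each group. VDD2 is the highest of the 12 mice in 7 genes, and the Cd4 values of 5 VDS-F1 mice lie above all VDD-F1 values.

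Prenatal diet was compared with edgeR's quasi-likelihood test, and a gene was called at a Benjamini-Hochberg adjusted p under 0.05 with a log2-fold change above 1 or below -1. None of the 10 genes was called. Among all genes, 0.0402% were called in the fit with a mean count of 12 and 0.0394% in the fit with a total count of 12. At an unadjusted p under 0.05, Cd8a was higher in VDD-F1 mice and Cd4 was lower, and the other 8 genes were not past this limit. In the fit with a total count of 12, 8.94% of all genes were higher at that limit and 5.50% were lower, and in the fit with a mean count of 12, 6.29% were lower. DESeq2's Wald test called 1 member, Cd8a, in the fit with a total count of 12, where it called 1.36% of all genes higher in VDD-F1. The CPM ranges of the groups overlapped in all 10 members, while 1.03% of all genes had groups that did not overlap.

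Cd8a encodes the alpha chain of the CD8 coreceptor of cytotoxic T cells (chr6:71373427-71379173, plus strand). Its count in VDD-F1 mice was lowest in VDD3 at 0, had a median of 6 and was highest in VDD2 at 23. In 5 VDS-F1 mice there was no count, and VDS4 had 2. Every VDD-F1 mouse other than VDD3 had at least 1 count, and VDD1, with 1, lay below VDS4. The mean level was 0.396 ± 0.433 CPM (SD, n = 6) in VDD-F1 and 0.0173 ± 0.0424 CPM (n = 6) in VDS-F1 mice. The group totals were 44 and 2 counts, a ratio of 21.2 after scaling with a 95% exact interval of 5.52 to 180 that covers counting error only. Without VDD2 the ratio was 12.4 (3.03 to 109). The fitted log2-fold change of 3.92 ± 1.08 (SE) depends on the prior count of edgeR, and its adjusted p was 0.124. An exact two-sided permutation test of mean log2 CPM over all 924 splits of the mice gave p = 0.0281. Without VDD2 the fitted change was 3.19, edgeR's adjusted p was 0.275 and the exact permutation p was 0.0563. Without VDS4, which leaves VDS-F1 libraries that are all at 0, the fitted change was 5.78, again dependent on the prior count, with an adjusted p of 0.197. DESeq2 gave 4.19 with an adjusted p of 0.0458.

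Cd4 encodes the coreceptor of helper T cells (chr6:124864692-124888221, minus strand), which some dendritic cells and macrophages also carry. Its counts in VDD-F1 mice were 14 to 25 with a median of 20, and in VDS-F1 mice 23 to 51 with a median of 33.5. In CPM the VDD-F1 mice had 0.945 to 1.58 and the VDS-F1 mice 1.40 to 3.54. The groups overlapped only through VDD1, the highest VDD-F1 mouse, and VDS4, the lowest VDS-F1 mouse. The mean was 1.18 ± 0.228 CPM (SD, n = 6) against 2.22 ± 0.755 CPM (n = 6). The fitted log2-fold change was -0.91 ± 0.26 (SE) with an adjusted p of 0.118 in edgeR, and the exact permutation test gave p = 0.00433, where 0.00216 is the smallest value that 6 against 6 mice allow. VDD2 did not stand apart for Cd4, and without it the fitted change was -0.93 with an adjusted p of 0.192. In DESeq2 Cd4 had a log2-fold change of -0.92 and an adjusted p of 0.0420, short of the fold limit, where 4.05% of all genes had an adjusted p under 0.05.

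Cd8a and Cd4 took different shares of their joint count in the groups. Cd8a made up 26.7% of 165 counts in VDD-F1 mice (95% exact Clopper-Pearson interval 20.1% to 34.1%) and 0.905% of 221 counts in VDS-F1 mice (0.110% to 3.23%). Without VDD2 the VDD-F1 share was 17.8% (11.4% to 25.9%). The share per mouse was 0% to 48.9% in VDD-F1 and 0% to 6.90% in VDS-F1 mice, so the ranges overlapped, and in VDD3 the 0 of 14 counts allowed a share of up to 23.2%. These intervals cover counting error and not the spread between mice.

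**Figure D2:**
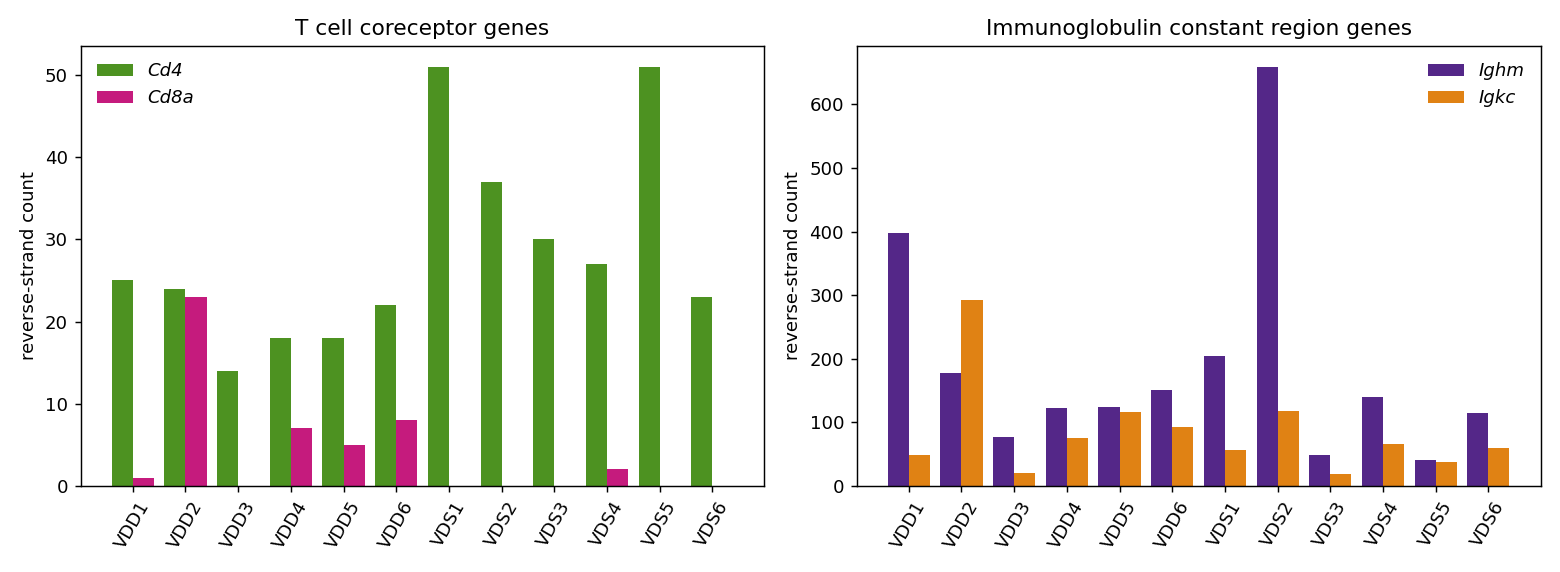
Reverse-strand counts per mouse of Cd4 and Cd8a (left) and of Ighm and Igkc (right), 1 pair of bars per mouse. Cd8a is at 0 in 5 of 6 VDS-F1 mice, and Ighm is highest in VDS2 (659) and VDD1 (398).

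Cd3e and Cd3g encode the epsilon and gamma chains of CD3, which all T cells carry (chr9:44998740-45009627 and chr9:44969572-44980431, both on the minus strand). The Cd3e count was 3 to 68 with a median of 15 in VDD-F1 mice, and 0 to 18 with a median of 17 in VDS-F1 mice. VDD2 was the highest mouse, at 68, and VDS1 had no count. The Cd3e log2-fold change was 0.61 ± 0.65 (SE) with an adjusted p of 0.693 in edgeR, and without VDD2 it was -0.03 with an adjusted p of 0.988. Without VDS1, the mouse with no count, it was 0.33. Cd3g had 0 to 10 counts (median 5) in VDD-F1 and 1 to 8 (median 4.5) in VDS-F1 mice. Its log2-fold change was -0.08 ± 0.79, with an adjusted p of 0.981, and -0.42 without VDD2. Cd3e shares its position with the antisense gene Gm48719 on the opposite strand and with Gm48720, a gene model of unresolved type on the same strand, and reads in the shared stretch of the latter are not assigned to either gene.

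Nkg7 encodes a granule membrane protein of NK and cytotoxic T cells (chr7:43437073-43438249, plus strand). Its count ranged from 3 to 27 in VDD-F1 mice (median 9) and from 0 to 9 in VDS-F1 mice (median 4). The 4 highest CPM values included 3 VDD-F1 mice beside VDS2. The mean was 0.581 ± 0.432 CPM against 0.229 ± 0.213 CPM (SD, n = 6 each), and the log2-fold change of 1.34 ± 0.74 (SE) had an adjusted p of 0.428. Gzma encodes granzyme A, a protease of cytotoxic granules (chr13:113093825-113100981, minus strand). All 6 VDD-F1 mice had counts, from 1 to 18 with a median of 7, while 4 of the VDS-F1 mice had 0 and VDS4 and VDS6 had 7 each. The Gzma log2-fold change was 1.52 ± 0.96 with an adjusted p of 0.504, and without VDS6 it was 2.32 with an adjusted p of 0.347. The exact permutation p was 0.0779 for Nkg7 and 0.0823 for Gzma, and 0.156 for both without VDD2. Without VDD2 the fitted changes were 0.85 and 1.11 on the log2 scale.

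Cd79a and Cd79b encode the signalling pair of the B cell receptor (chr7:24897381-24902197, plus strand, and chr11:106311341-106314762, minus strand). The Cd79a count was 1 to 37 (median 18) in VDD-F1 and 2 to 18 (median 8) in VDS-F1 mice. VDD-F1 mice held both extremes, VDD3 the lowest and VDD2 the highest. Cd79b had 3 to 37 counts (median 13) in VDD-F1 and 4 to 18 (median 7.5) in VDS-F1 mice. The log2-fold changes were 0.78 ± 0.57 and 0.52 ± 0.54 (SE), with adjusted p of 0.537 and 0.717 in edgeR. The Cd79b change was 0.33 without VDS1 and 0.79 without VDS2. Without VDD2 the changes were 0.44 and 0.04, and the difference of mean log2 CPM of Cd79b was then -0.03.

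Ighm encodes the constant region of the IgM heavy chain (chr12:113418558-113422730, minus strand), made by B cells before they switch to another class and by IgM plasma cells. Its count was 77 to 398 (median 137.5) in VDD-F1 and 40 to 659 (median 127) in VDS-F1 mice. The highest values were in VDS2 and VDD1, at 38.8 and 25.1 CPM, and the other 10 mice had at most 10.1 CPM. The log2-fold change was -0.19 ± 0.57 (SE) with an adjusted p of 0.912. It was -0.16 without VDD2 and 0.70 without VDS2. The mean of log2 CPM, which the permutation test compares, differed in the other direction, by 0.21 (VDD-F1 minus VDS-F1). Igkc encodes the constant region of the kappa light chain (chr6:70726435-70726966, plus strand) and lies within Gm30211, a noncoding gene on the same strand. Its count was 21 to 293 (median 83.5) in VDD-F1 and 18 to 118 (median 58) in VDS-F1 mice, with VDD2 the highest. The log2-fold change was 0.74 ± 0.47 with an adjusted p of 0.469, and 0.19 without VDD2. The exact permutation p of the 2 CD3 genes and the 4 B cell genes ranged from 0.329 (Igkc) to 0.725 (Ighm).

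**Figure D3:**
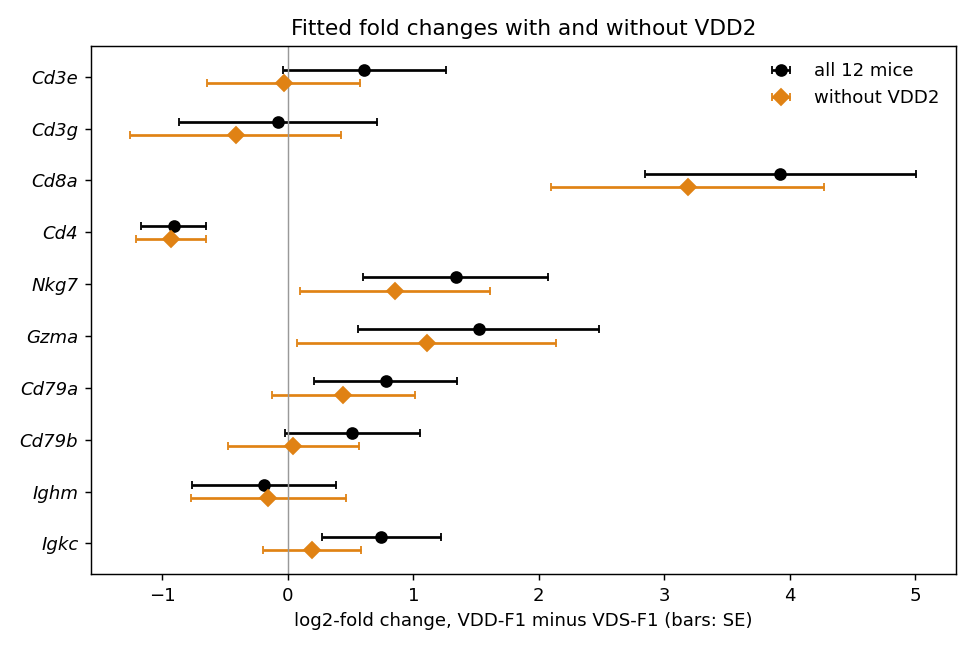
Fitted log2-fold change of each member, VDD-F1 minus VDS-F1 (horizontal axis, bars give the SE), in all 12 mice and without VDD2. Cd8a (3.92 and 3.19) and Cd4 (-0.91 and -0.93) keep their sides of 0, and Cd3e moves from 0.61 to -0.03.

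The 2 immunoglobulin genes were not in a fixed ratio. Igkc made up 10.8% to 62.3% of the joint Igkc and Ighm count in VDD-F1 mice and 15.2% to 48.1% in VDS-F1 mice. The lowest shares were in VDD1 and VDS2, the mice with the most Ighm, and the highest was in VDD2. In VDD2 the IgG constant genes took 34.0% of the heavy chain counts (95% exact interval 29.7% to 38.4%), against 1.75% to 20.4% in the other VDD-F1 mice and 2.66% to 12.7% in VDS-F1 mice. Igkc, in turn, was 80.3% to 99.2% of the light chain counts in every mouse.

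Variable segments are recombined with joining segments in each B or T cell and spliced to a constant gene, so that receptors differ in the segment they carry. The number of segments with a count also follows the number of counts obtained, which was not held fixed here. Of 100 annotated Igkv segments, VDD-F1 mice had counts on 5 to 45 (median 15) and VDS-F1 mice on 4 to 20 (median 7). VDD2 had 45 Igkv segments with 143 counts, and VDD6 followed with 30 segments. Of 113 Ighv segments, VDD-F1 mice had counts on 3 to 35 (median 9) and VDS-F1 mice on 4 to 16 (median 8), again with VDD2 the highest. VDS2, the mouse with the most Ighm, had the second most Ighv counts, 49 on 16 segments, while VDD1, the next in Ighm, had 16 counts on 9 segments. The most abundant segment was Igkv1-110, with a mean count of 2.92 per library, so single segments were too sparse to compare. Of 22 Trbv segments of the T cell receptor, at most 7 were detected in VDD-F1 and at most 5 in VDS-F1 mice.

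**Figure D4:**
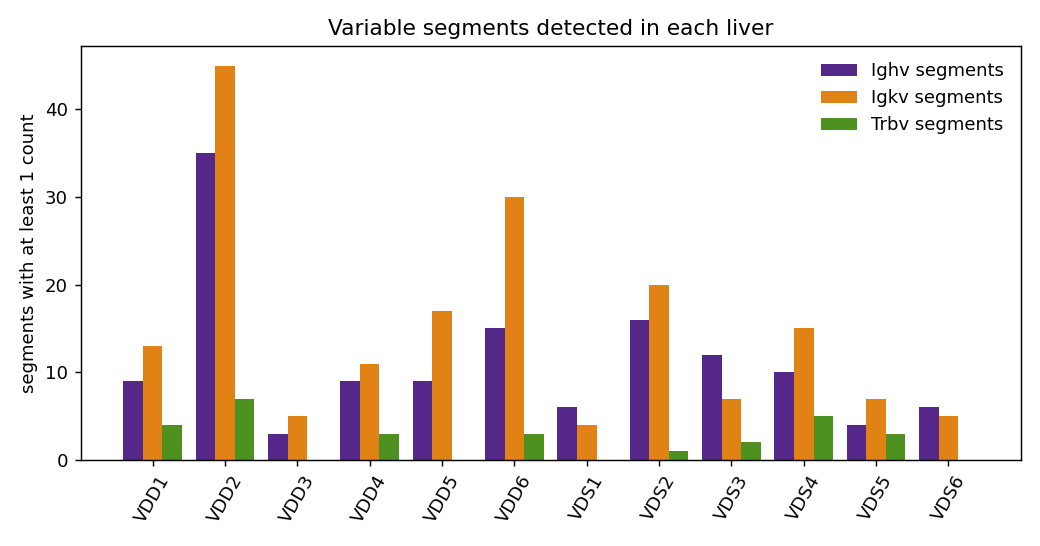
Number of Ighv, Igkv and Trbv segments with at least 1 count (vertical axis) in each of the 12 livers. VDD2 has the most Igkv (45) and Ighv (35) segments.

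The effect of diet was also computed within the mice with a recorded liver weight (3 VDD-F1 and 4 VDS-F1) and within the others (3 and 2). In the first set, 4 members were higher in every VDD-F1 mouse than in any VDS-F1 mouse (Cd8a, Nkg7, Cd79a and Igkc), where 10.7% of all genes had that pattern, and 1 member, Cd4, was lower in every VDD-F1 mouse, where 9.04% of all genes did. In the other set 1 member, Gzma, was higher without overlap, with 1, 18 and 2 counts against 0 and 0, where 9.39% of all genes were, and 1, again Cd4, was lower, where 8.69% of all genes were. Cd4 thus separated the groups within each set. The log2-fold changes of Cd4 were -1.01 and -0.85 in the sets, with unadjusted p of 0.0209 and 0.101 in edgeR. Cd8a had 7, 5 and 8 counts in the VDD-F1 mice of the first set, against 2 in VDS4 and 0 in the others. In the second set it had 1, 23 and 0 counts against 0 in both VDS-F1 mice, so its fitted value there depends on the prior count and on VDD2. Cd79a was at 1.21 in the first set and 0.17 in the second, and Igkc at 0.85 and 0.47. No interaction of diet and set had an adjusted p under 0.05 for any member, and the lowest unadjusted p was 0.0819, for Gzma. With diet in the fit, the Ighm difference between the sets, recorded minus not recorded, was -1.51 ± 0.43 (SE) on the log2 scale, with an adjusted p of 0.0938. What the record of a weight stands for is not given, and its part in these values was not tested.

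Other genes were taken from lists made for this comparison. Of these, 143 could be tested, 73 from lists of T, NK, B and plasma cells and 70 from lists of homing genes and of other cells. None was called by edgeR in all 12 mice. DESeq2 called 4 higher in VDD-F1 mice, all from the lymphocyte lists. Zap70, Spib and Blnk were called in its fit with a mean count of 12, where 1.75% of all genes were called higher, and Cd2 in its fit with a total count of 12, where 1.36% were. In the mice with a recorded liver weight edgeR called 9 of the 143. Of these, 4 are genes of the lymphocyte lists (Blnk, Ighd, Spib and Zap70), all higher in VDD-F1. The other 5 are the dendritic cell gene Cd209a, which was higher, and the homing gene Cxcl13, the Kupffer cell genes Folr2 and Timd4 and the spleen and lymph node gene Siglec1, which were lower. In that set it called 4.30% of all genes in the fit with a mean count of 12 and 3.29% in the fit with a total count of 12, and none of the 10 members. Of 19 further T cell genes, 17 had a fitted change above 0, with a median log2-fold change of 1.04, where the median over all 17769 genes was 0.01 and 51.8% of them were above 0. Trbc1 (-0.10) and Cd28 (-0.21), picked after their values were seen, were the 2 below 0. Without VDD2, 4 of the 19 were below 0. Of the 19, 16 had a mean count under 12, and the other 3 had a median of 0.43 in the fit with that mean count. At an unadjusted p under 0.05, 4 were higher in VDD-F1 and 0 lower, where 8.94% of all genes were higher and 5.50% lower. Without VDD2 the count was 2 and the median 0.47, where 6.51% of all genes were higher and 4.67% lower. These shares over all genes also stand beside the counts of the lists that follow. The most abundant was Zap70, a kinase of T and NK cells, with 56 to 278 counts in VDD-F1 and 31 to 145 in VDS-F1 mice and a log2-fold change of 1.18 (adjusted p = 0.119 in edgeR). Tcf7, a transcription factor of T cells, had a log2-fold change of 0.34, or 0.19 without VDD2. That of Thy1 was 0.43, or 0.20 without either VDD2 or VDD5 and 0.28 without VDS1. Cd8b1 encodes the partner chain of CD8 and was picked after its values were seen. It had 1 to 8 counts in VDD-F1 and 0 to 6 in VDS-F1 mice, 4 of which had 0. Its log2-fold change was 1.96 (adjusted p = 0.335), 1.87 without VDD2 and 3.85 without VDS4 (adjusted p = 0.183 in edgeR). Cd2, a T and NK cell adhesion receptor also picked afterwards, had 4 to 17 and 0 to 6 counts, with 0 in 4 VDS-F1 mice. Its log2-fold change was 2.75 (adjusted p = 0.150), 2.51 without VDD2 and 4.66 without VDS4 (adjusted p = 0.120 in edgeR).

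Of 16 further NK and cytotoxic genes, 14 could be tested, 13 had a change above 0 and the median was 1.56. Of these, 6 were higher at an unadjusted p under 0.05, and without VDD2 the count was 2 (Klrb1c and Klrd1) and the median 0.93. Among the 6 were Klrd1, Klrb1c and Ncr1, picked after their values were seen, which reached the total count of 12 mainly through VDD-F1 mice. Klrb1c had 0 counts in 5 VDS-F1 mice and Ncr1 had at most 2 in any. The direction of these genes is therefore not independent of that filter. The median in all mice was the same with Klrd1, which had 19 counts over the VDD-F1 group against 0, set to its bound of at least 6.09-fold higher against a floor of 3 counts over the group. A mean count of 12 was reached by 2 of the 16, with a median of 1.30. Il2rb, the interleukin receptor chain of these cells, had 7 to 102 counts in VDD-F1 and 15 to 32 in VDS-F1 mice, with a log2-fold change of 0.94 in all mice and 0.55 without VDD2. Ccl5, a chemokine of cytotoxic cells, had a log2-fold change of 1.66, or 1.06 without VDD2. That of the activating receptor gene Klrk1 was 0.21, or -0.18 without VDD2. Of 16 further B cell genes, 7 reached that mean count with a median of 0.99 in its fit. In the fit with a total count of 12, 14 of the 16 had a change above 0 with a median of 0.69, and 4 were higher at an unadjusted p under 0.05, or 2 without VDD2. Blnk, an adaptor of B cell receptor signalling, had a log2-fold change of 1.30 (adjusted p = 0.133 in edgeR), or 0.81 without VDD2. Cd37 had 0.14, or -0.02 without VDD2, and Bank1 had -0.08, or -0.21 without VDD2. Spib, a transcription factor of B cells and plasmacytoid dendritic cells, was picked after its values were seen as the only gene of these lists whose groups did not overlap, with 14 to 38 counts against 5 to 11, a log2-fold change of 1.66 and an adjusted p of 0.0627.

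**Figure D5:**
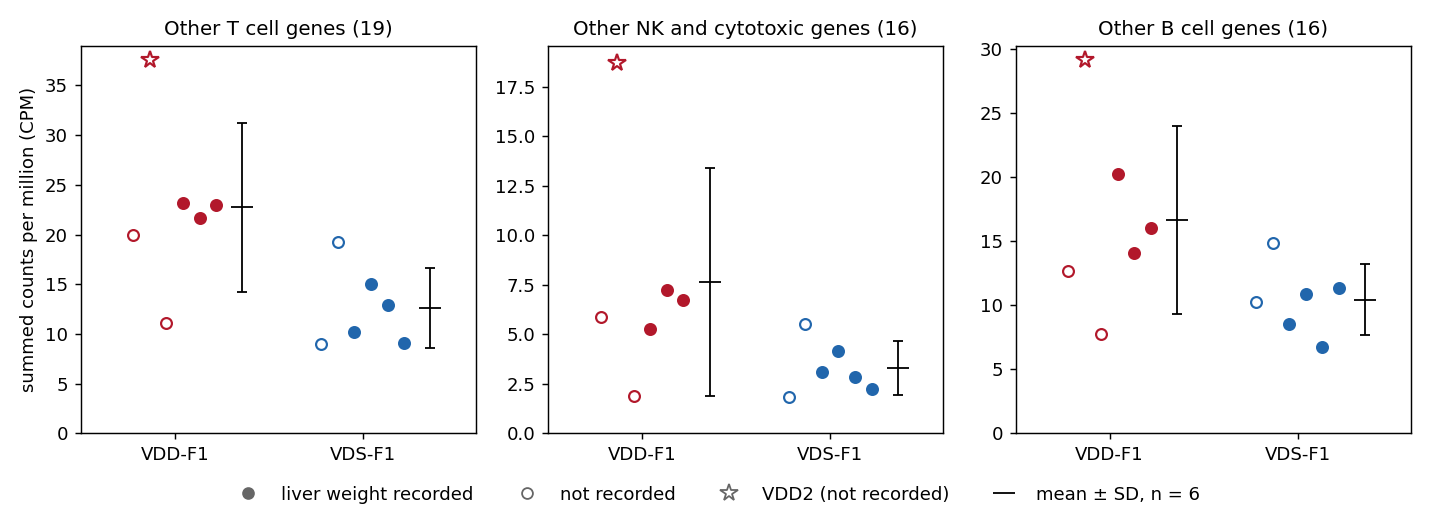
Summed CPM of 19 other T cell genes, 16 other NK and cytotoxic genes and 16 other B cell genes in each mouse, with the mean ± SD of 6 mice beside each group. VDD2 is the highest mouse in all 3 panels, and the ranges of the groups overlap in each.

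Plasma cell, homing and myeloid genes gave the surroundings of these values. Of 16 plasma cell genes, 15 could be tested and 5 were higher at an unadjusted p under 0.05, or 1 without VDD2. That gene was Sdc1, which encodes the surface proteoglycan syndecan-1 and is also expressed by hepatocytes, with a mean count of 5646, and no immunoglobulin gene of the list passed the limit without VDD2. Ighg2b, of a switched antibody class, had a log2-fold change of 1.89 in all mice and 0.96 without VDD2, and Igha 0.82 and 0.34. Of 13 genes of lymphocyte homing and survival, 9 could be tested, 4 were higher and 1 was lower, and without VDD2 1 was higher and 1 lower. Of 10 pan-leukocyte genes, 1 was higher, or 0 without VDD2, and Ptprc, which encodes CD45, had a log2-fold change of 0.44, or 0.07 without VDD2. Among 10 genes of Kupffer cells, the resident macrophages, 3 were lower at an unadjusted p under 0.05, namely Clec4f, Folr2 and Timd4, with log2-fold changes of -0.50, -0.81 and -0.81, and without VDD2 the count was 4. Among 10 dendritic cell genes 4 were higher, or 3 without VDD2, and 9 had a change above 0 with a median of 1.09, or 0.84 without VDD2. Among 10 neutrophil genes 7 could be tested and 2 were higher, or 1 without VDD2, and all 7 had a change above 0 with a median of 1.43, or 1.35 without VDD2. A median change of this size was not limited to the lists of lymphocyte genes. Of 6 endothelial genes 1 was higher, or 0 without VDD2, and 2 were lower with and without it. Of 9 red cell and platelet genes and 7 hepatocyte genes none passed that limit in all mice, and without VDD2 1 hepatocyte gene, Alb, was higher. Of 6 gamma delta T cell genes 3 could be tested and none was past that limit, of 11 genes of T cell states 6 could be tested and 1 was higher, or 0 without VDD2, and of 5 genes of spleen and lymph node 2 could be tested and none was past it, while without VDD2 Siglec1 was lower. The single genes named here were picked after their values were seen. The part of these cells in the values of Cd4, Cd8a and the other members was not tested.

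Over the 12 libraries, Cd8a varied most closely with Gzma among the members (Pearson r of log2 CPM 0.79, or 0.71 without VDD2), and Cd4 ran opposite to both (r -0.61 with Cd8a and -0.72 with Gzma). Cd79b followed Igkc (r 0.78) and Cd79a followed Nkg7 (r 0.76), while Ighm had r of at most 0.44 with any other member. These values, and those of r that follow, are a description over 12 points that share depth, include VDD2 and pool both diet groups. A difference between the groups therefore enters each r, as Cd8a was at 0 in 5 VDS-F1 mice and Gzma in 4. No r of these genes was computed within a group. Cd4 was set beside the lists of T cell, Kupffer cell and dendritic cell genes after the data had been seen. With the 19 further T cell genes the r of Cd4 ran from -0.81 (Cd2) to 0.30 (Cd3d) with a median of -0.26, and 18 were below 0, while r was -0.15 with Cd3e and 0.20 with Cd3g. With the 10 Kupffer cell genes it ran from -0.34 (Marco) to 0.58 (Folr2) with a median of 0.12. With the 10 dendritic cell genes it ran from -0.73 (Itgae) to 0.68 (Zbtb46) with a median of -0.46, and Zbtb46 was the only one above 0. Among the 12453 genes of the first fit, the closest to Cd4 were Gorasp1, Zcchc14 and Smarcd2 (r 0.91 to 0.86), those closest to Cd79a were Ctsc, Rftn1 and Cdr2l (r 0.96 to 0.91), and those closest to Igkc were Ly9, Tmem173 and Ighg2b (r 0.95 to 0.93). Cd3e was most alike to Epb41l3, Ptpn6 and Ifi30 (r 0.91 to 0.90), and Ighm to Vps39, Trim30d and Zfp558 (r 0.90 to 0.83).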

How the data were processed

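Liver RNA from 12 male mice was sequenced with 1 library per mouse. After adapter trimming, the authors mapped the fragments to mm10 (GRCm38) with STAR and deposited its raw count for each gene, once ignoring strand and once per strand, with no normalization. The reverse-strand count was used, and 52489 of 52636 genes were matched to symbols with GENCODE M21, where the authors name M15. A fragment is counted if it maps uniquely and overlaps 1 gene, so reads of overlapping or near-identical genes, such as immunoglobulin segments, are left out. Samples were grouped by their labels. Counts were compared with edgeR 4.0.16 in R 4.3.3 (TMM, quasi-likelihood test in the legacy form, Benjamini-Hochberg over all genes tested), where the study's methods name DESeq2. Log2 CPM used a prior count of 2. With 14275793 to 20815066 counts per library, 3 counts correspond to 0.144 to 0.210 CPM before scaling to the effective library size. After that scaling, 3 Trbv counts in VDD6 were 0.140 CPM and 3 Cd3e counts in VDD3 were 0.226 CPM. Intervals are 95% exact and cover counting error only. Same-numbered mice are different animals.

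The alternatives were DESeq2 1.42.0, voom with quality weights in limma 3.58.1, a robust and a newer edgeR fit, the unstranded count, size factors from DESeq2, different filters on low counts, a covariate for the set, each set by itself, each mouse left out and a replicate block. The members and lists were chosen with earlier results of these data known. The genes named are the members, up to 3 genes per list with the highest mean count, the 3 genes most alike to each of the 5 members with a mean count of at least 12, and genes said in the text to have been picked after their values were seen. The fits were tested on simulated data. Python 3.11.15 was used for tables and plots, with pandas 2.3.3, SciPy 1.17.1, NumPy 2.4.6 and matplotlib 3.10.9.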

Additional observations from a re-analysis of the deposited data

Results flagged for a closer look

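Within a group of 6 mice, a highest or lowest value was looked at again where its gap to the nearest other mouse, divided by the range of the group, was above Dixon's 95% critical value. Among the 10 lymphocyte genes this held for VDD2 in 3 genes of the VDD-F1 group, with 3.54 CPM of Cd3e (next mouse 1.45), 1.41 CPM of Nkg7 (next 0.617) and 15.3 CPM of Igkc (next 6.09). It held for Ighm in both groups, with 25.1 CPM in VDD1 (next 9.23) and 38.8 CPM in VDS2 (next 10.1). For Cd8a it held for VDS4, with 0.104 CPM from 2 counts where the other 5 VDS-F1 mice had 0. With those mice at 0, any count in VDS4 would have been flagged. Chance exceeds the critical value in about 1 in 20 groups of normally distributed values, a rate that need not hold for CPM of sparse counts.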

How the results depend on the processing

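The log2-fold change of each member was recomputed under 23 or 26 alternatives, and of these 245 values 229 kept their direction and their side of the adjusted p threshold. Depth was a limit, since 5 of the 10 members had a mean count under 12 and 2 counts in all made up the Cd8a value of the VDS-F1 mice. The number of members called higher was 0, and 1 (Cd8a) with DESeq2 in the fit with a total count of 12, the one that holds Cd8a, and no alternative called a member lower. At an unadjusted p under 0.05, the number of members higher in VDD-F1 was 1. It was 2 with voom, the newer fit or the replicate block, 3 in the mice with a recorded weight and 0 with filterByExpr, which left Cd8a out, and it ranged from 1 to 3 when each mouse was left out (3 without VDS2, 2 without VDS6). Of all 17769 genes with a total count of 12, 1589 were higher at this limit in all mice. There were 1784 with voom, 1778 with the newer fit, 1287 with the replicate block and 1940 in the recorded set. Without VDS2 there were 1599 and without VDS6 1491. Of the 12453 genes in the other fit, 1189 were higher in all mice, 1029 with the replicate block and 1611 in the recorded set. The number of members lower was 1 (Cd4) and became 0 in the mice without a recorded weight, a set of 5 mice, where 216 of 12453 genes were lower. Where no construction of the alternative is named, the cause was not tested. With 1 mouse left out, the log2-fold change ranged from -0.034 to 0.83 for Cd3e (below 0 without VDD2), from -0.42 to 0.25 for Cd3g, from -0.67 to 0.70 for Ighm (above 0 without VDS2), from -0.18 to 0.58 for Klrk1, from -0.28 to 0.16 for Bank1 and from -0.055 to 0.32 for Cd37. Cd3e also turned to -0.37 in the recorded set, Cd3g to 0.024 with the newer fit and 0.13 in the set without a recorded weight, and Ighm to 0.34 with voom and 0.44 in the recorded set. Klrk1 turned to -0.46 with voom and -0.22 in the set without a recorded weight, Bank1 to 0.15 with voom and 0.25 in the recorded set, and Cd37 to -0.39 in the set without. The replicate numbers mark different mice and did not pair them, since deviations of same-numbered mice had correlations from -0.076 to 0.10. The replicate block changed no call of a member and turned Ighm to 0.21 and Klrk1 to -0.17. Of the named genes of other lists, 23 of 459 values had an adjusted p under 0.05 where edgeR's test of all mice did not. Spib was called with voom, DESeq2, the newer fit, the set as covariate, in the recorded set and without VDD1 or VDD3 (adjusted p over all alternatives 0.00111 to 0.999). With voom Zap70, Cd2 and Klrb1c were also called higher and Folr2 and Cxcl13 lower, the latter pair also without VDD1. Voom called 181 of 12453 genes higher and 71 lower in the fit with a mean count of 12. In the fit with a total count of 12 it called 101 of 17769 higher and 61 lower. Without VDD1, edgeR called 212 of 12453 genes higher and 48 lower. Without VDD3 it called 72 higher, and with the newer fit or the set as covariate 10. The difference of mean log2 CPM turned to -0.30 for Cd3e in the recorded set, and to -0.49, -0.83 and -0.066 for Cd79a, Ighm (0.21 in all mice) and Igkc in the other set, and without a log the Ighm difference was -1.38 CPM. Exact permutation tests within the sets cannot go below p = 0.0571 and 0.2. The summed level of the 4 B cell members was higher in VDD-F1 by 1.61 CPM, and by 0.62 CPM without Ighm and Igkc, and leaving out VDD2 turned these to -0.47 and 0.20 CPM. With 1 mouse left out, the first ranged from -0.57 (without VDS3) to 7.91 CPM (without VDS2), and was also below 0 without VDD1 or VDS5.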
